A study of Mus musculus with 16 samples.

Results

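The renin-angiotensin system was described here through 9 genes: Ren1, Agt, Ace, Agtr1a, Agtr2, Anpep, Enpep, Mme and Atp6ap2. Every probe set whose annotated symbol is 1 of these genes was taken. That gave 12 of the 45101 probe sets on the array, for 8 of the 9 genes. No probe set is named Ren1 in the annotation used, so renin, the enzyme that starts the cascade, was not analysed here. The data are Affymetrix mouse whole-genome arrays of kidney RNA from pups aged 7 days on a C57BL/6J background, with 1 kidney RNA and 1 array per pup. The 9 Aqp11 knockout pups (5 males and 4 females) and the 7 wild-type littermates (3 males and 4 females) came from matings of heterozygous parents of a line made in 129/SvEvBrd and backcrossed to C57BL/6. Aqp11 is an aquaporin of the endoplasmic reticulum, and its germline deletion, which removes it from every cell type, is the allele that defines the groups. The arrays compare kidney transcripts with and without it.

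In the renin-angiotensin system, renin cuts angiotensinogen (Agt) to angiotensin I, and angiotensin-converting enzyme (Ace) trims that to angiotensin II. Angiotensin II acts mainly through the type 1 receptor, which raises vascular tone and sodium reabsorption, while the type 2 receptor is known for its expression in the developing kidney. The proximal tubule carries much of the system in the kidney, since its brush border holds Ace and the peptidases that break angiotensins down.

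The promoters of Ace, Anpep, Enpep and Agt are shown because they set side by side genes whose transcripts fell in the knockout (Ace, Anpep) and genes whose transcripts did not pass the test (Enpep, Agt). Each run is the 250 bases before the first transcription start that RefSeq gives on build GRCm38.p6, printed 5′ to 3′ on the strand of the gene. Capitals mark matches on either strand to 5 motifs: the TATA box (TATAAA), the CCAAT box (CCAAT), the GC box (GGGCGG), an HNF1 core (GTTAAT) and a cAMP response element core (TGACGT).
Ace: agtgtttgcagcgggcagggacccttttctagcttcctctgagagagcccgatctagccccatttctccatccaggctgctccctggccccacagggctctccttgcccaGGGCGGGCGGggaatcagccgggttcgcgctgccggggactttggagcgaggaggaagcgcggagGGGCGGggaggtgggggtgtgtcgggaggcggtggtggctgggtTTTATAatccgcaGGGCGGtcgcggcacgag
Anpep: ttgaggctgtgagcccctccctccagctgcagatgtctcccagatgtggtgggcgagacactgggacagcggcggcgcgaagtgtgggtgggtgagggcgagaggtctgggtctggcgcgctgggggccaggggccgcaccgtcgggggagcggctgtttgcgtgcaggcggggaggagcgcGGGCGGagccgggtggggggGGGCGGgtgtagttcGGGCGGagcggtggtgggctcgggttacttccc
Enpep: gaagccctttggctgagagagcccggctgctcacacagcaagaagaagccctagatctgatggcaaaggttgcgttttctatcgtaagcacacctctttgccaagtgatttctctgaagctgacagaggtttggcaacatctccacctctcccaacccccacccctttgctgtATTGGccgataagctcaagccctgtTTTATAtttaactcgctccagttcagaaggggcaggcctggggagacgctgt
Agt: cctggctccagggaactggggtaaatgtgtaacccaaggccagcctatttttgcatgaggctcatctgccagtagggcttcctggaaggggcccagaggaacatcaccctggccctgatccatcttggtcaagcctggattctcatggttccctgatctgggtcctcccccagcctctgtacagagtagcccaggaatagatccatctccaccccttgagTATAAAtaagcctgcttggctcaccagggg
Ace lies on the plus strand at chr11:105967698-105967947, Anpep on the minus strand at chr7:79848211-79848460, Enpep on the minus strand at chr3:129332750-129332999 and Agt on the minus strand at chr8:124569707-124569956. The Ace run holds a TATA box that begins 31 bases before the start and 4 GC boxes that begin 140, 136, 75 and 18 bases before it, the first 2 of which overlap. The Anpep run holds 3 GC boxes, beginning 68, 48 and 33 bases before the start, and no TATA box. The Enpep run holds a TATA box at 52 bases and a CCAAT box at 77 bases, and the Agt run a single TATA box at 30 bases. Among all 32851 RefSeq windows of the same length, 12.4% hold the TATA box, 33.8% the CCAAT box, 32.7% the GC box, 6.43% the HNF1 core and 6.47% the cAMP response element core. RefSeq windows were given for 8 of the 9 genes, 11 windows in all, with Agtr1a the gene without one. Of those 11 windows, 4 hold the TATA box, 6 the CCAAT box, 6 the GC box, 1 the cAMP response element core and 0 the HNF1 core. The TATA matches of Ace and Enpep and the CCAAT match of Enpep lie on the opposite strand, and the other matches printed on the strand shown. A match is a match of letters and was not set against the expression values by a test.

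Signals were quantile normalized, so that all arrays share 1 distribution, and are given as log2 signal. A probe set was tested if it lay above the 40th percentile of its array on at least 7 of the 16 arrays, which kept 27377 probe sets, all 12 of the renin-angiotensin system among them. A probe set was called changed at an adjusted p under 0.05 (limma, Benjamini-Hochberg adjustment over all probe sets tested). Aqp11 read 2.95 ± 0.33 in knockout (SD, n = 9), with 7 arrays at the floor set on low signals, and 7.87 ± 0.16 in wild type (SD, n = 7), so each label matched its array. The mean signal of an array before normalization differed by up to 2.12-fold. Over all probe sets tested, 11.7% were called, 5.46% lower and 6.21% higher in knockout, and the median log2 change was -0.01.

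Of the 12 probe sets of the renin-angiotensin system, 5 were lower in knockout, 0 were higher and 7 did not pass the test. The 5 belong to Ace, Agtr1a, Anpep and Mme, and their falls ran from 1.24-fold to 1.39-fold. The median log2 change over the 12 was -0.18. In 2 of the 12, those of Agtr1a and Anpep, every knockout array lay below every wild-type array, a pattern that 1.69% of all tested probe sets showed (3.75% with no overlap in either direction). Agt, Agtr2, Enpep and Atp6ap2 had no probe set that passed. The mean log2 signal of 14 proximal tubule marker genes ran from 9.34 to 10.07 on the knockout arrays and from 10.54 to 10.83 on the wild-type arrays, and 13 of the 14 were lower in knockout, Slc22a8 (-0.92), Slc7a13 (-1.55), Slc5a2 (-2.07) and Hnf4a (-0.49) with the smallest p. That of 11 macrophage marker genes ran from 8.54 to 9.12 in knockout and from 6.91 to 7.86 in wild type, and 10 of the 11 were higher in knockout, Cd74 (2.06), C1qa (1.73), C1qc (1.81) and C1qb (1.69) with the smallest p. Their part in the changes below was not tested, and in whole kidney fewer cells of a type and less RNA per cell cannot be told apart.

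**Figure D1:**
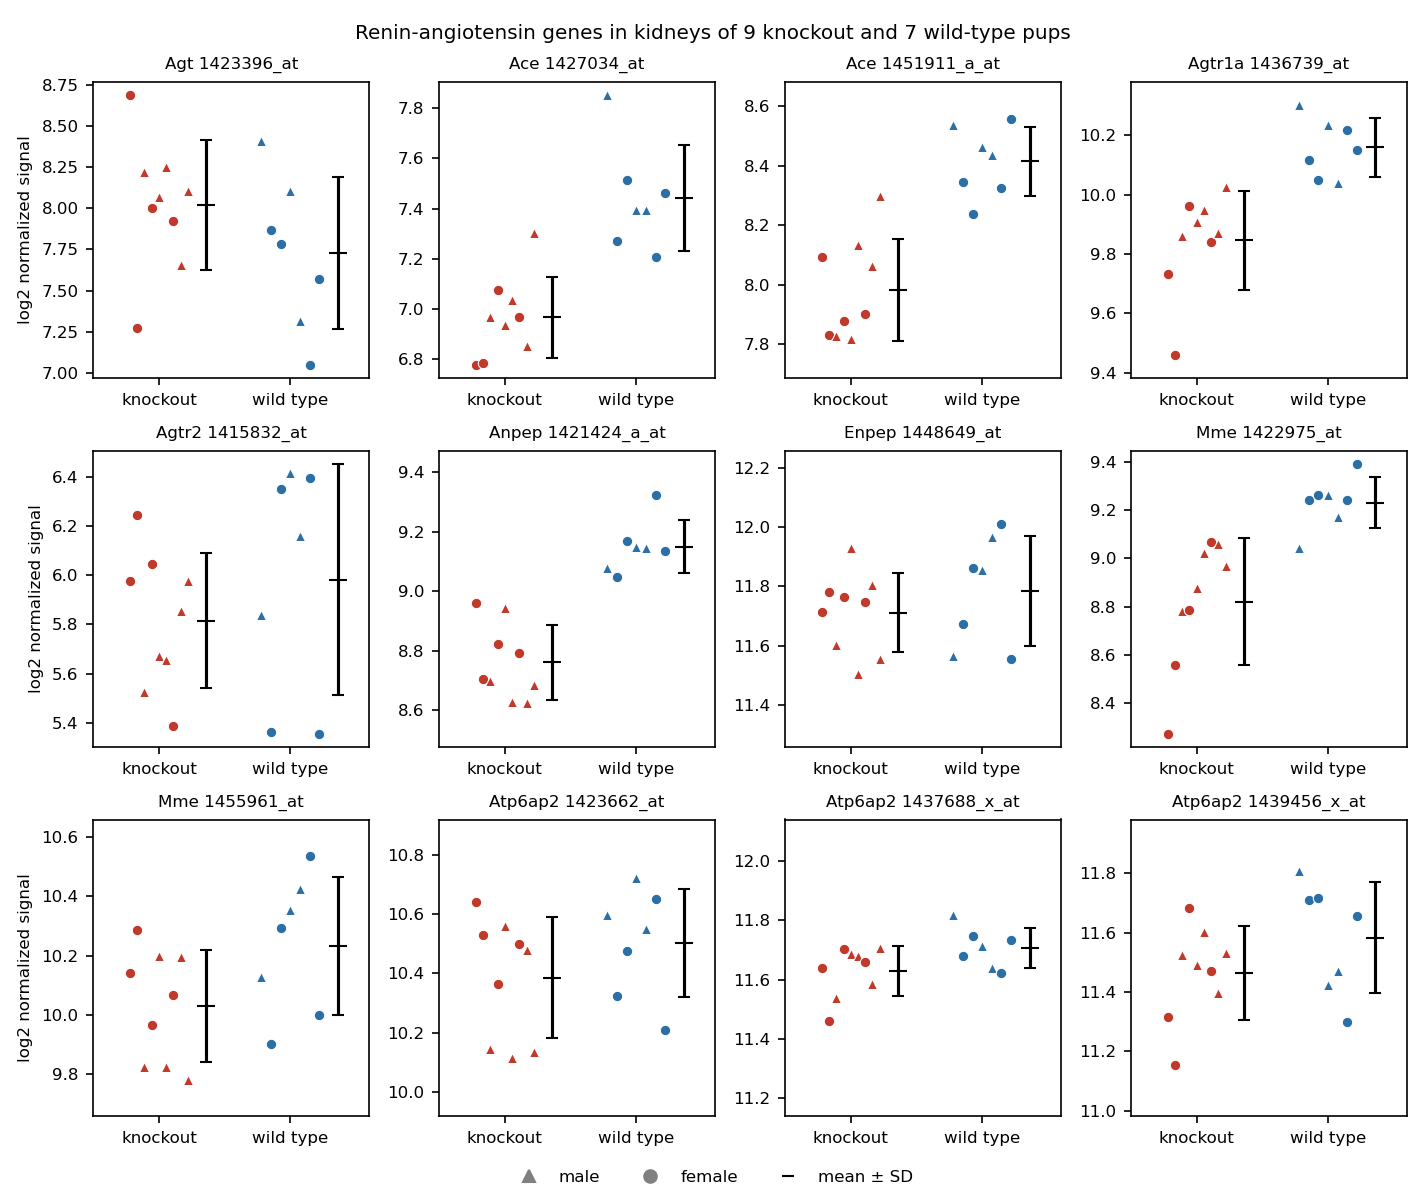
Log2 normalized signal of each of the 12 probe sets (one panel each), with 1 point per pup, knockout left of wild type (9 and 7 pups), and the mean with its SD. The knockout points of Agtr1a and Anpep sit wholly below the wild-type points, while the points of Agt, Agtr2, Enpep and Atp6ap2 overlap.

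Agt, the substrate of the whole cascade, is made chiefly by the liver and also by the proximal tubule. Its probe set (1423396_at) had a lowest, median and highest log2 signal of 7.27, 8.07 and 8.69 in knockout, against 7.05, 7.78 and 8.41 in wild type. The ranges overlapped, and 8 of the 9 knockout arrays lay inside the wild-type range. The log2 change was 0.29 (SE 0.19, 95% interval -0.10 to 0.68) and did not pass the test (limma adjusted p = 0.386). On the 8 arrays with the lower mean signal before normalization (5 knockout and 3 wild type) the change was 0.72 (limma adjusted p = 0.0219), and on the 8 brighter arrays (4 of each genotype) it was -0.04 (limma adjusted p = 0.954). This split was chosen after seeing the data, and the difference between its parts was not tested. Among liver markers, Alb, Apoa1 and Tat were too dim to test and Ttr, which other tissues also express, was the 1 tested.

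Atp6ap2 encodes the prorenin receptor, a membrane protein that binds renin and prorenin and is also an accessory subunit of the vacuolar proton pump (V-ATPase). It was read by 3 probe sets, of which 1437688_x_at and 1439456_x_at hold probes that also match other sequences. The log2 changes were -0.12 for 1423662_at (95% interval -0.31 to 0.07, limma adjusted p = 0.482), -0.08 for 1437688_x_at (-0.17 to 0.02, limma adjusted p = 0.324) and -0.12 for 1439456_x_at (-0.28 to 0.04, limma adjusted p = 0.396). None of the 3 passed, and their knockout and wild-type ranges overlapped. The lowest, median and highest log2 signals of 1423662_at, which matches no other listed sequence by its suffix, were 10.12, 10.48 and 10.64 in knockout and 10.21, 10.55 and 10.72 in wild type. Of 18 other V-ATPase genes tested by their brightest probe set, 5 were lower in knockout, 0 were higher and 13 did not pass, with a median log2 change of -0.17. Across all genes taken by their brightest probe set, 15.7% were called, 7.3% lower and 8.44% higher, with a median log2 change of 0.00. The 4 V-ATPase genes with the smallest p were Atp6v1b1 (-0.40), a subunit of intercalated cells, Atp6v1b2 (-0.29), Atp6v0a4 (-0.49), also an intercalated cell subunit, and Atp6v1a (-0.22), with limma adjusted p of 0.000298, 0.0033, 0.0033 and 0.00382. The 1 other tested probe set of Atp6v1b2 did not pass.

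Ace, the enzyme that forms angiotensin II and inactivates bradykinin, fell on both of its probe sets. On 1451911_a_at, a probe set that reads several transcripts of the gene, the lowest, median and highest log2 signals were 7.82, 7.90 and 8.30 in knockout, against 8.24, 8.44 and 8.56 in wild type. Every knockout array but 1 lay below the wild-type range, and the exception was knockout pup 5-2. The log2 change was -0.43 (SE 0.08, limma adjusted p = 0.000962), or 1.35-fold lower. On 1427034_at the signals were 6.78, 6.97 and 7.30 in knockout and 7.21, 7.40 and 7.85 in wild type. The same pup was again the only knockout array inside the wild-type range. The log2 change was -0.48 (SE 0.10, limma adjusted p = 0.00226), or 1.39-fold lower. The difference between the changes of the 2 probe sets was within the spread between pups (-0.04, exact permutation p = 0.634, two-sided, 0.900 after adjustment over the 5 pairs of probe sets of 1 gene). A shorter form of Ace is known from the testis, and the testis markers Prm1, Prm2 and Tnp1 were too dim to test here. They are other genes and do not show which form of Ace the 2 probe sets read, which was not tested.

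Agtr1a encodes the main type 1 receptor of the rodent kidney. Its log2 signals had a lowest, median and highest value of 9.46, 9.87 and 10.03 in knockout, against 10.04, 10.15 and 10.30 in wild type. No knockout array reached the wild-type range, though the highest knockout and the lowest wild-type array were only just apart. The log2 change was -0.31 (SE 0.07, limma adjusted p = 0.00529), or 1.24-fold lower. The type 2 receptor gene Agtr2, on the X chromosome, had log2 signals of 5.39, 5.86 and 6.24 in knockout and 5.36, 6.16 and 6.41 in wild type. Every knockout array lay inside the wild-type range, and the log2 change of -0.17 (95% interval -0.53 to 0.20) did not pass (limma adjusted p = 0.644). The paralog Agtr1b read 4.68 ± 0.44 in knockout (SD, n = 9) and 4.87 ± 0.39 in wild type (SD, n = 7), and did not pass either (-0.19, limma adjusted p = 0.673). Agtrap, whose product binds the type 1 receptor and drives it into the cell, changed by -0.12 (limma adjusted p = 0.441).

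**Figure D2:**
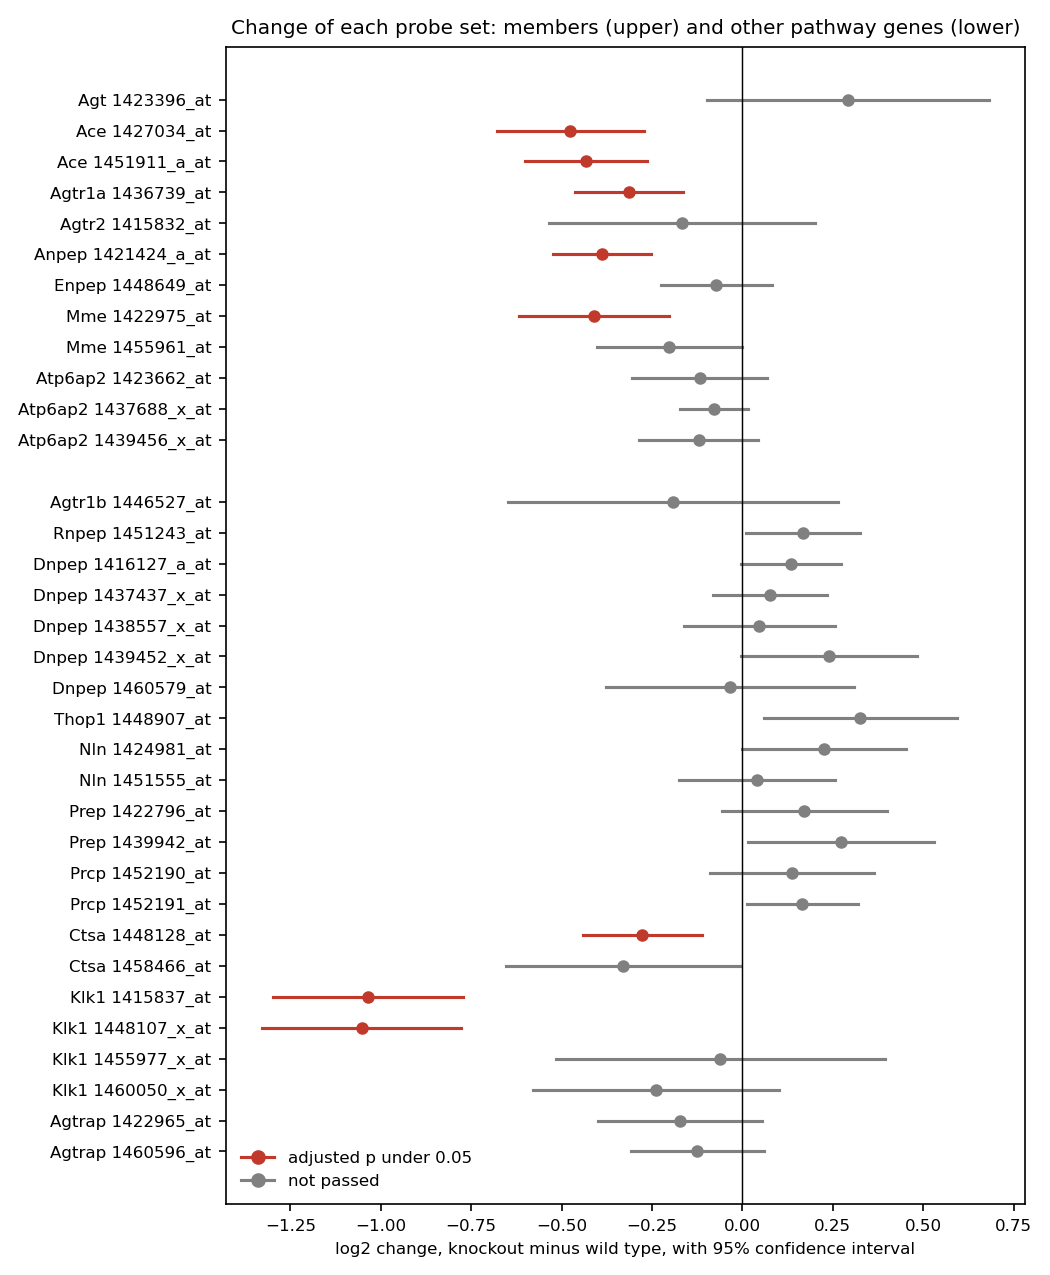
Change in log2 signal, knockout minus wild type, with its 95% interval for each of the 12 renin-angiotensin probe sets (upper) and each tested probe set of other pathway genes (lower), from the fit over all probe sets (9 knockout and 7 wild-type pups), red where the adjusted p was under 0.05. The intervals of both Ace probe sets, Agtr1a, Anpep and Mme 1422975_at lie below 0 and passed the adjusted test, and of the members Agt alone has a change above 0 (0.29), with an interval that spans 0.

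Anpep, aminopeptidase N, takes the N-terminal residue from angiotensin III. Its probe set (1421424_a_at) had log2 signals of 8.62, 8.70 and 8.96 (lowest, median and highest) in knockout, against 9.05, 9.14 and 9.32 in wild type. The groups did not overlap. The log2 change was -0.39 (SE 0.07, limma adjusted p = 0.000328), or 1.31-fold lower, and had the smallest p of the 12. Anpep lies on chromosome 7, as does Aqp11, with 133 protein-coding RefSeq genes between them, so 129/SvEvBrd sequence carried along with the knockout allele and the loss of Aqp11 cannot be told apart for it.

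Enpep, aminopeptidase A, converts angiotensin II to angiotensin III and so stands 1 step before Anpep. It had log2 signals of 11.51, 11.75 and 11.93 in knockout and 11.56, 11.85 and 12.01 in wild type. Of the 9 knockout arrays, 8 lay inside the wild-type range. The log2 change of -0.07 had a 95% interval of -0.23 to 0.08 and did not pass (limma adjusted p = 0.626), so the interval ends short of the falls estimated for Ace, Agtr1a and Anpep. That comparison sets an interval beside other estimates and was not a test of the difference.

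Mme, neprilysin, is a membrane endopeptidase that forms angiotensin-(1-7) from angiotensin I and degrades natriuretic peptides and kinins. Its 2 probe sets did not give the same call. On 1422975_at the lowest, median and highest log2 signals were 8.27, 8.88 and 9.07 in knockout, against 9.05, 9.24 and 9.39 in wild type. Of the 9 knockout arrays, 7 lay below the lowest wild-type array, with pups 1-2 (8.27) and 2-3 (8.56) the lowest. The log2 change was -0.41 (SE 0.10, limma adjusted p = 0.0085), or 1.33-fold lower. On the brighter probe set, 1455961_at, the signals were 9.78, 10.07 and 10.28 in knockout and 9.90, 10.29 and 10.54 in wild type. These ranges overlapped for most arrays, and the log2 change of -0.20 (95% interval -0.40 to -0.00) did not pass (limma adjusted p = 0.209). The difference between the 2 changes was -0.21 and within the spread between pups (exact permutation p = 0.240, two-sided, 0.900 after adjustment over the 5 pairs). Within a genotype the 2 probe sets did not vary together, with a Pearson r of -0.34 over the 9 knockout arrays and -0.16 over the 7 wild-type arrays, whereas the 2 of Ace had an r of 0.48 in each. A call for Mme therefore rests on which of its probe sets is read.

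The members differed in how they followed a Gapdh control ratio of the arrays. The log2 ratio of the Gapdh probe set at the 3′ end to that at the 5′ end, which climbs where RNA is degraded or copied incompletely, was -0.33 ± 0.15 in knockout (SD, n = 9) and -0.34 ± 0.09 in wild type (SD, n = 7), a difference within the spread between pups (exact permutation p = 0.843, two-sided). With genotype means removed, 12 relations to this ratio were computed over the 16 arrays, with permutation p-values adjusted over the 12. Atp6ap2 1423662_at followed it downwards (Pearson r = -0.83, permutation p = 2e-04, adjusted 0.0024; Spearman rho = -0.77, permutation p = 0.00083, adjusted 0.00996), with r = -0.75 without the 2 arrays farthest from the median ratio. So did Mme 1455961_at (r = -0.76, permutation p = 0.00114, adjusted 0.00684; rho = -0.68, permutation p = 0.0048, adjusted 0.0192), with r = -0.70 without those 2 arrays. Agtr2 had r = -0.70 (permutation p = 0.00309, adjusted 0.0124; rho = -0.74, permutation p = 0.0018, adjusted 0.0108), and -0.62 without them. For Enpep (r = -0.62, permutation p = 0.0117, adjusted 0.0281) and for Mme 1422975_at, which ran the other way (r = 0.63, permutation p = 0.00656, adjusted 0.0197), Spearman's rho did not pass after adjustment (rho = -0.57, adjusted permutation p = 0.0552, and rho = 0.51, adjusted permutation p = 0.0868). Without the same 2 arrays their r was -0.53 and 0.71. Knockout pups 1-2 and 2-3, the lowest in Mme 1422975_at, also had the lowest ratios of all 16 arrays (-0.50 and -0.52). The highest ratio was -0.13, so no array had more Gapdh signal at the 3′ end than at the 5′ end. Arrays brighter before normalization tended to have lower ratios. Among knockout pups, 1-2 had the highest trimmed mean signal (236) and 2-4, with the ratio of -0.13, the lowest (124). RNA quality and array brightness were not separated by a test. The other 7 probe sets, both of Ace, Agtr1a, Anpep and Agt among them, had adjusted permutation p-values of Pearson's r from 0.0897 to 0.692. Among them, Anpep leaned downwards (r = -0.51, permutation p = 0.0455, adjusted 0.0897), with r = -0.52 without the same 2 arrays. Its rho was -0.57 (permutation p = 0.0225, adjusted 0.0552), with the same adjusted value as that of Enpep. With the ratio as a term in the fit, the same count of 5 was called. The change of Mme 1455961_at was then -0.19 and still did not pass (limma adjusted p = 0.0623).

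**Figure D3:**
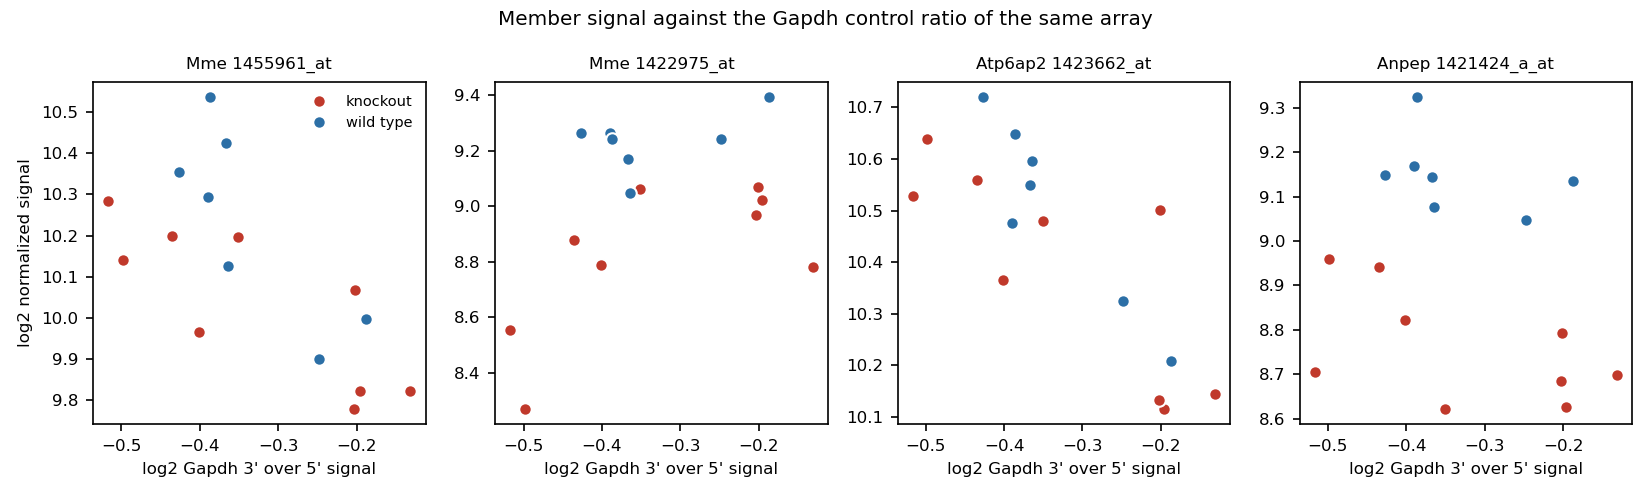
Log2 signal of Mme (2 probe sets), Atp6ap2 1423662_at and Anpep against the log2 ratio of the Gapdh 3′ to 5′ probe sets, 1 point per array, knockout and wild type marked apart. The knockout points run from -0.52 to -0.13 in the ratio and the wild-type points from -0.43 to -0.19, and the Mme probe sets slope in opposite directions (r = 0.63 for 1422975_at and -0.76 for 1455961_at with genotype means removed).

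Probe sets of different members were also set against each other across arrays within the genotypes. As a description over 16 arrays with genotype means removed, Enpep and Mme 1455961_at had r = 0.87 (0.85 over the knockout and 0.89 over the wild-type arrays), and Mme 1455961_at and Atp6ap2 1423662_at had r = 0.84. Others ran in opposite directions, with r = -0.75 for Mme 1455961_at and Atp6ap2 1439456_x_at and r = -0.57 for the Atp6ap2 probe sets 1423662_at and 1439456_x_at. Correlations with the Gapdh ratio removed were not computed. The genes most like each member by the same measure were Aass, Ttr and Aoah for Agt (r = 0.89 each), Ergic3, Psap and Tef for Ace (0.87 to 0.88), and Slc4a4, Galnt11 and Asl for Agtr1a (0.90 to 0.91). For Agtr2 they were Vegfc, Auh and Atp2a2 (0.81 to 0.87), for Anpep Manea, Ptch1 and Wdfy1 (0.86 to 0.94), and for Enpep Scn2b, Klhl9 and Sox4 (0.92 to 0.93). For Mme, read by its brighter probe set, they were Ldb2, Slc9a3r1 and Marcks (0.96 each), and for Atp6ap2 Lyplal1, Lrrc19 and Gab2 (0.91 to 0.94). Each is the highest of the correlations with all tested probe sets that name 1 other gene.

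Other genes of angiotensin and kinin handling mostly did not pass. Of 18 such genes, 10 were tested by their brightest probe set, and 0 were higher and 2 lower in knockout, with a median log2 change of 0.09. For this list and those below, the shares called over all genes by brightest probe set were 8.44% higher and 7.3% lower. Klk1, tissue kallikrein, which releases kinins from kininogen, was the larger of the 2. Its log2 signal on 1448107_x_at was 10.80 ± 0.33 in knockout (SD, n = 9, from 10.15 to 11.25) and 11.85 ± 0.26 in wild type (SD, n = 7, from 11.49 to 12.17). The ranges were apart, and the log2 change of -1.05 was a 2.07-fold fall (limma adjusted p = 1.24e-05). Probe set 1415837_at gave -1.04 (limma adjusted p = 8.21e-06), while 1455977_x_at (-0.06, limma adjusted p = 0.908) and 1460050_x_at (-0.24, limma adjusted p = 0.423), which are dimmer, did not pass. Klk1 has many near-identical family members, so its value is uncertain where probes match them too, and it also lies on chromosome 7. Ctsa, a lysosomal carboxypeptidase that can act on angiotensin I and endothelin, was 1.21-fold lower (-0.28, limma adjusted p = 0.0252), though its dimmer probe set did not pass (-0.33, limma adjusted p = 0.205).

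The endopeptidases Thop1 (0.33), Prep (0.17) and Nln (0.04) can form angiotensin-(1-7) from angiotensin I. By brightest probe set their log2 changes were above 0, as were those of the carboxypeptidase Prcp (0.17) and the aminopeptidases Rnpep (0.17) and Dnpep (0.13). None of these changes passed the test (limma adjusted p from 0.116 to 0.871). Other tested probe sets of Dnpep, Nln, Prep and Prcp did not pass either, with changes from -0.03 (Dnpep 1460579_at) to 0.27 (Prep 1439942_at). Mas1, the receptor of angiotensin-(1-7), and the mast cell and leukocyte proteases Cma1, Mcpt4 and Ctsg, which can form angiotensin II, were too dim to test. Ren2, Mrgprd and Lnpep were not analysed here, since no probe set carries their name in the annotation used.

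Beside the brush border peptidases of the system, other brush border genes were lower. Of 9 tested, 8 were lower and 0 higher, with a median log2 change of -0.72, while Cltrn, collectrin, was not called (-0.44, limma adjusted p = 0.133). Lrp2 and Cubn are also among the proximal tubule markers, so these lists are not separate sets, and Cubn itself gives the median of -0.72. The 4 with the smallest p were Mep1b (meprin beta, -0.78), Dpep1 (a dipeptidase, -0.97), Xpnpep2 (aminopeptidase P, which also degrades bradykinin, -0.85) and Slc3a1 (an amino acid transporter subunit, -0.92). Their limma adjusted p ran from 1.39e-06 to 8.94e-05. The members of the brush border gave -0.43 for Ace and -0.39 for Anpep, -0.20 for Mme on its brighter probe set and -0.07 for Enpep. Endothelial cells also carry Ace, and 4 of 8 endothelial markers tested were lower and 0 higher (median log2 change -0.20), the 4 being Emcn (-0.37), Ehd3 (-0.38), Tek (-0.31) and Pecam1 (-0.21). The smooth muscle, mesangium and pericyte markers, from cells that carry type 1 receptors, had 4 of 9 higher and 1 lower (median 0.27), with the smallest p for Tagln (0.72), Itga8 (-0.38), Acta2 (0.27) and Cnn1 (0.46). The 1 other tested probe set of Acta2 did not pass. Of 5 podocyte markers tested, 2 were lower, Nphs1 (-0.53) and Ptpro (-0.38), and 0 higher (median -0.18).

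**Figure D4:**
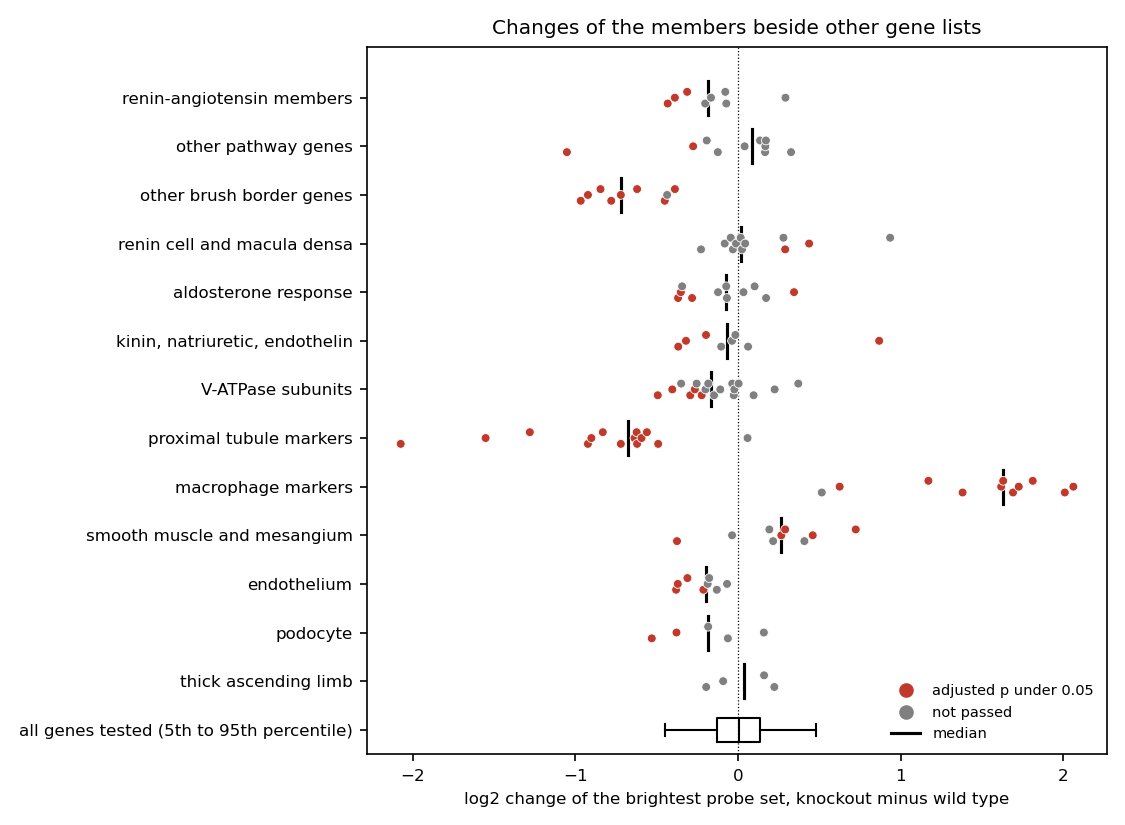
Change in log2 signal, knockout minus wild type, of each tested gene in the lists of the renin-angiotensin members, other angiotensin and kinin genes, brush border, juxtaglomerular, aldosterone, kinin and endothelin, V-ATPase and cell type marker genes, 1 point per gene by its brightest probe set, red where called, a black bar at each median, and a box with whiskers from the 5th to the 95th percentile for all genes tested. Proximal tubule and brush border genes lie mostly below 0 (medians -0.68 and -0.72) and macrophage genes above 0 (median 1.63), with the renin-angiotensin members between (median -0.18). The proximal tubule and brush border lists share Lrp2 and Cubn, and the juxtaglomerular and smooth muscle lists share Rgs5.

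Renin itself was not read. Genes of the renin-producing juxtaglomerular cell and the macula densa, which do not measure renin, were examined. Of 15 such genes, Akr1b7 and Adora1 had no probe set named for them, and Gja5 was too dim to test. Of the 12 tested, 2 were higher in knockout, 0 were lower and 10 did not pass, with a median log2 change of 0.02. Over all genes taken by their brightest probe set, 8.44% were called higher and 7.3% lower. Rgs5, a regulator of G protein signalling in pericytes and juxtaglomerular cells, was 1.22-fold higher (0.29, limma adjusted p = 0.0443), and Pde3b, which breaks down cAMP, was 1.35-fold higher (0.44, limma adjusted p = 0.0148). Rgs5 is also counted among the higher smooth muscle, mesangium and pericyte markers above. Ptgs2, the macula densa cyclooxygenase, changed by 0.93 with 1 array at the floor and did not pass (limma adjusted p = 0.126).

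Downstream of angiotensin II, genes of the aldosterone response moved in both directions. Of 11 tested, 1 was higher and 3 were lower (median -0.07). Slc12a3, the thiazide-sensitive cotransporter (-0.37, limma adjusted p = 0.00284), Scnn1a, the alpha subunit of the epithelial sodium channel (-0.35, limma adjusted p = 0.0162), and Tsc22d3 (-0.28, limma adjusted p = 0.0355) fell. The 2 other tested probe sets of Tsc22d3 did not pass. Fkbp5, a chaperone partner of steroid receptors, rose (0.34, limma adjusted p = 0.0394). The mineralocorticoid receptor gene Nr3c2 changed by -0.34 and did not pass (limma adjusted p = 0.0617). Of 6 adrenal cortex markers, 5 were too dim to test, and Star was tested and did not pass (-0.52, limma adjusted p = 0.321).

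Kinins are substrates of Ace and Mme, and natriuretic peptides and endothelins of Mme. Of 15 genes of these peptides and their receptors and processing enzymes, 8 were tested, and 1 was higher and 3 were lower (median -0.07). Bdkrb1, Bdkrb2, Nppa, Nppb and Nppc were too dim to test, and Kng2 and Ednra had no probe set named for them. Of the dim genes, Nppb read 4.02 ± 0.85 in knockout (SD, n = 9) and lay at the floor of 2.78 on every wild-type array, a difference that was not tested. Edn1, the precursor of endothelin 1, was 1.82-fold higher (0.87, limma adjusted p = 1.66e-05). Ednrb, an endothelin receptor (-0.32, limma adjusted p = 0.00302), Kng1, kininogen (-0.37, limma adjusted p = 0.00753), and Npr3, the natriuretic peptide clearance receptor (-0.20, limma adjusted p = 0.0465), fell on their brightest probe sets. The 1 other tested probe set of Kng1 and the 2 of Npr3 did not pass.

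Sex was examined as a second comparison, over 8 male and 8 female pups. None of the 12 probe sets differed between males and females after adjustment (limma), against 0.0767% of all probe sets, and at an unadjusted p under 0.05 the counts were 0 of 12 and 856 of 27377. None had a sex by genotype interaction after adjustment, and neither did any other probe set (0%), with an unadjusted p under 0.05 for 2 of the 12 and 2790 of the 27377. Those 2 were Atp6ap2 1423662_at, with a log2 change of -0.34 in males and 0.09 in females (interaction -0.43, limma adjusted p = 0.488), and Mme 1422975_at, with -0.22 in males and -0.62 in females (interaction 0.40, limma adjusted p = 0.488).

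The falls were also computed within the brighter and the dimmer arrays, 8 each, where every one kept a negative sign and fewer passed. On the 8 brighter arrays the log2 change was -0.61 and -0.49 for the Ace probe sets 1427034_at and 1451911_a_at, -0.58 for Mme 1422975_at, -0.41 for Agtr1a and -0.25 for Anpep, and the first 3 passed (limma adjusted p = 0.0240, 0.0183 and 0.0210) while Agtr1a and Anpep did not (0.0506 and 0.106). On the 8 dimmer arrays it was -0.33 and -0.39 for Ace, -0.29 for Mme 1422975_at, -0.23 for Agtr1a and -0.52 for Anpep. There Anpep alone of the 5 passed (limma adjusted p = 0.00481), and the others had limma adjusted p from 0.0911 to 0.196. Wild-type pups 2-1 and 2-2 had the highest macrophage marker means of their group (7.86 and 7.84, against 6.91 to 7.22 for the other 5). Without them the same count of 5 passed, with changes of -0.50 and -0.48 for Ace, -0.34 for Agtr1a, -0.41 for Anpep and -0.40 for Mme 1422975_at. On the deposited signals without normalization the changes of the 5 ran from -0.45 to -0.30 and none passed (limma adjusted p from 0.429 to 0.843). Within 1 sex, Anpep passed in males (-0.41, limma adjusted p = 0.0263), and none of the 5 passed in females (limma adjusted p from 0.0524 to 0.0952).

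**Figure D5:**
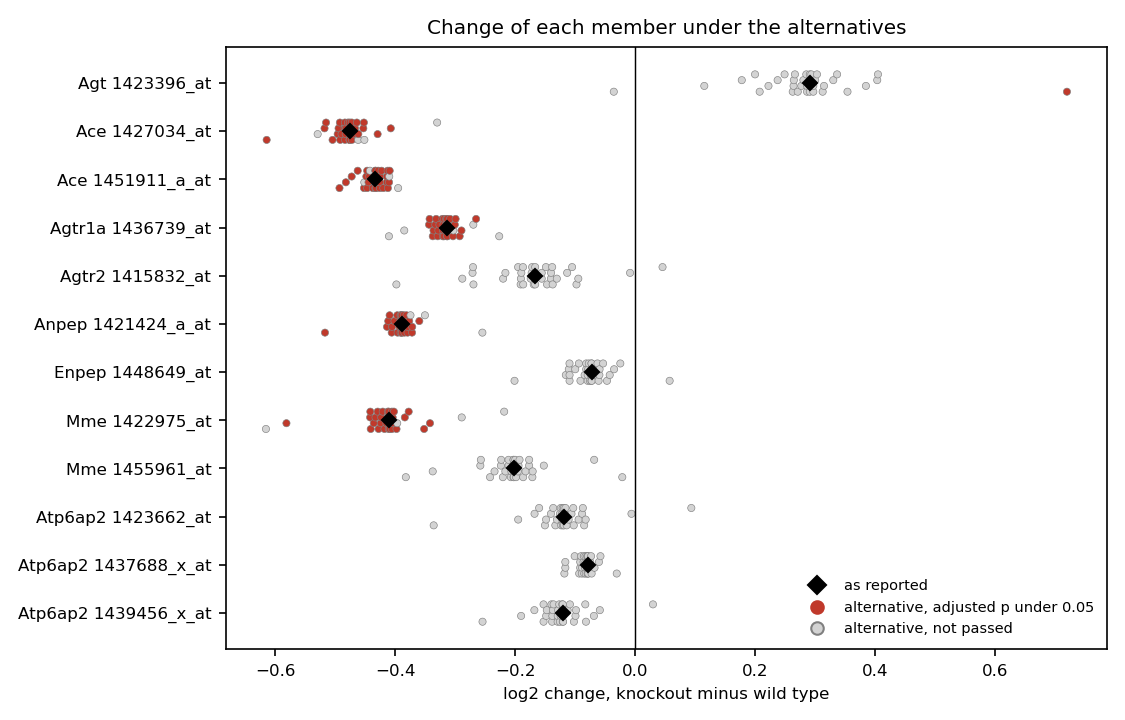
Log2 change, knockout minus wild type, of the 12 probe sets under the different ways of processing, each point 1 alternative, red where the adjusted p was under 0.05, and a black diamond the value as reported. The points of both Ace probe sets, Agtr1a, Anpep and Mme 1422975_at stay below 0 throughout, and those of Agt spread from -0.04 to 0.72.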

How the data were processed

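Kidney RNA of 9 Aqp11 knockout and 7 wild-type pups was read on 16 arrays, grouped by genotype and sex from the labels. The authors deposited linear signal intensities from GCOS 1.3, as named by the submitters' processing notes. Any scaling by the authors is not stated there, and the 2% trimmed means differed 2.12-fold. The intensities were quantile normalized, set to a floor at the 20th percentile of all values (6.89, or 2.78 in log2) and taken to log2, so quantile normalization would hide a change in total mRNA and the floor understates the change of dim genes. Control probe sets (64) were left out. The platform annotation names 1 gene for 34958 probe sets and several for 932, which were not named, and 9211 are unlisted. Genotype was fitted with limma 3.58.1 in R 4.3.3 with a variance trend, and sex as a second term or an interaction. Other genes were taken by their brightest probe set. Genotype comparisons of single measures used exact permutation over the pups. Permutation p-values of the relations to the Gapdh ratio came from 1e+05 resamples and were not exact.

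The members, lists and tests were chosen with earlier results of these data known. All members were named, and from each other list every changed gene up to 4, or the 4 with the smallest p, plus the angiotensin list in full and the 3 genes most like each member. Aqp11 served as a check of the labels. Cltrn, Ptgs2, Nr3c2, Star and the dim liver and testis markers were named with their values already known. So were the dim or unlisted juxtaglomerular, kinin, natriuretic and endothelin genes. Simulated data were used to test the fit. The number of pups limits the precision. Alternatives covered scaling, floor, filter, probe set choice, terms, variance model, single arrays left out and either sex alone. Those on array brightness, the Gapdh ratio and wild-type arrays 2-1 and 2-2 were chosen after seeing the data. Figures were drawn with matplotlib 3.10.9.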

Additional observations from a re-analysis of the deposited data

How the results depend on the processing

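Under up to 37 alternatives each, the 5 called probe sets of Ace, Agtr1a, Anpep and Mme kept a negative change. Their number stayed at 5 with median centring, trimmed mean scaling, other floors and filters, sex as a term, other variance models and with any 1 array left out (5 in each case). It was 0 without normalization between the deposited arrays, 3 with 1 probe set per gene (Ace counted once and the brighter Mme probe set not passing), 1 in males alone (Anpep), 0 in females alone, 3 on the 8 brighter and 2 on the 8 dimmer arrays. These last 2 settings and each sex hold fewer arrays. The 2 on the dimmer arrays were 1 lower (Anpep) and 1 higher (Agt). Arrays of the 2 genotypes with the same first sample number had deviations that correlated at 0.04, 0.08, -0.06, 0.12 and 0.30. These values do not settle whether pups that share the number are paired. With the first sample number as a replicate block the count was 5, over 3919 calls in all against 3195 without it. With the block as a random effect the count was also 5, over 3653 calls. Signs turned for probe sets that had not passed: Agtr2 (0.046) and Atp6ap2 1423662_at (0.094) in females alone, Agt (-0.035) and Enpep (0.058) on the brighter arrays, and Atp6ap2 1439456_x_at (0.030) on the dimmer ones. The cause was not tested. Over all probe sets, calls numbered 573 without normalization, 65.45% of them higher against 53.21% with it, and 1838 in males, 767 in females, 1731 on the brighter and 1461 on the dimmer arrays. No member was called for sex or for its interaction with genotype under any alternative run for them (limma). The count was 0 of 12, or 0 of 11 with the filter at the 60th percentile, where Agtr2 was not tested. Dim probe sets, such as Agtr2 and Agtr1b, have wide intervals.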
